A study of Mus musculus with 12 samples.

Results

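Collagens are the chains that build the fibres, sheets and filaments of the extracellular matrix, and this report follows all 44 collagen genes of a single-cell RNA-seq survey of the developing mouse cochlea. The members were taken by name: every gene column of the count table written as Col, a number, the letter a and a number was kept, which gave 44 of 24489 genes. Cochleae were opened on embryonic days E14.5 to E18.5 and on postnatal day 3 (P3), tdTomato-positive cells were sorted singly into 384-well plates, and their RNA was read with Smart-seq2, a method that sequences along the whole transcript. The 12 plates mapped to a stage were 2 at E14.5, 2 at E15.5, 3 at E16.5, 1 at E17.5, 2 at E18.5 and 2 at P3. All plates but 1 are labelled PVcre;Ai14, in which Cre from the parvalbumin locus switches on tdTomato (R26tdTOM), and replicate 2 of E14.5 is labelled TrkCcre; the methods give Ntrk3Cre;R26tdTOM for E14.5, so the driver of E14.5 replicate 1 is uncertain. The mice were on a C57Bl/6J background, several animals were pooled for each experiment, the modiolus of the cut-open cochlea was taken at E14.5 and E15.5 and the dissected spiral ganglia later, and the P3 plates came from an earlier study.

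Of 4608 wells on these plates 4226 passed the cell filter, and they were sorted into classes by clustering without any collagen gene and by marker genes. The classes were otic mesenchyme-like (OM-like, 516 wells), glia-like (1044), spiral ganglion neuron-like (SGN-like, 1374) and hair cell-like (HC-like, 68), with 979 further wells in clusters that carried both neuronal and glial markers (SGN/glia mixed), 43 otic epithelium-like wells, 6 macrophage-like wells, 119 wells in clusters left unnamed and 77 wells set aside for markers of other cells. Summed over the 6 plates that hold OM-like, glia-like and SGN-like wells together (E14.5 to E17.5, plate series SS2_20), all 14 or 13 of 14 mesenchymal markers were detected in OM-like sums, all 9 glial markers in glia-like sums and all 10 neuronal markers in SGN-like sums. Clusters were named from these same lists, so this is no separate test of identity. Detection alone did not separate the classes. Glia-like sums held 12 to 13 mesenchymal and all 10 neuronal markers, and SGN-like sums held 8 to 13 mesenchymal markers. The 10 OM-like wells of E16.5 replicate 2 also carried neuronal markers at 9261 CPM (counts scaled to a common library size), against 184 to 272 CPM in the other OM-like sums, and the 15 glia-like wells of E16.5 replicates 1 and 2 carried 6431 to 8380 CPM against 555 to 774. Results that rest on these wells are given with and without their plates. The mixed wells of E16.5 replicate 3 and of E17.5 (51 and 9 wells) held neuronal markers at only 560 and 287 CPM, within or below the range of glia-like sums. Counts were summed over the wells of a class on a plate, so that a plate is the replicate. A level is in CPM after TMM scaling, and levels of different genes are compared only per kilobase of transcript (CPM/kb). In summed wells, fewer expressing cells and less RNA per cell cannot be told apart.

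Every collagen chain holds a stretch in which glycine returns at every 3 residues. Such chains wind in groups of 3 into a triple helix, and the families differ in what the helices assemble into. Fibrillar collagens (types I, II, III, V, XI, XXIV and XXVII) form the banded fibres of bone, cartilage and connective tissue. FACIT collagens, such as type IX, lie on the surface of those fibres. Type IV collagen is the sheet of basement membranes, type VI makes beaded filaments around cells, type VII anchors epithelia to their stroma, types XV and XVIII join basement membranes to the matrix, and types XIII, XVII, XXIII and XXV span the cell membrane. In the ear, type II and type IX collagens are known from the cartilage of the otic capsule and from the tectorial membrane, the gel that covers the hair cells.

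The shared unit can be read in the genes themselves. Exons of 54 bases that open on a glycine codon are shown for 6 members that lead a level or a difference below, with the glycine codon (GGN) that opens each repeat of 3 codons in capitals. They are taken from GENCODE M21 on GRCm38 (mm10), the coding strand 5′ to 3′. The exons lie at chr15:97998545-97998598 (Col2a1, minus strand, coding exon 6 of 54), chr1:45325360-45325413 (Col3a1, plus, 6 of 51), chr6:4515481-4515534 (Col1a2, plus, 8 of 52), chr3:114108281-114108334 (Col11a1, plus, 15 of 67), chr9:20801068-20801121 (Col5a3, minus, 15 of 67) and chr1:24202014-24202067 (Col9a1, plus, 11 of 38).
Col2a1: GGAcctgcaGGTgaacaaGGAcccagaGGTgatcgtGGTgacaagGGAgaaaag
Col3a1: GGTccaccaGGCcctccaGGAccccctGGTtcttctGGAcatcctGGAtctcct
Col1a2: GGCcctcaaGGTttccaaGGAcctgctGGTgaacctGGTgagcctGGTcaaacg
Col11a1: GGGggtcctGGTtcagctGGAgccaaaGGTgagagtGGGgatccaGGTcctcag
Col5a3: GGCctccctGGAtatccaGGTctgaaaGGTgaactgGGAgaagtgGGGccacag
Col9a1: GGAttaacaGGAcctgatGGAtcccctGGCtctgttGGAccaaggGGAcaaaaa
Among the 11 fibrillar genes 305 of 647 coding exons (47.14%) were 54 bases long and 82.53% were a multiple of 9, and the longest uninterrupted run of glycine at every 3 codons held 216 to 344 glycines. In the 9 FACIT genes 25.29% of coding exons had 54 bases and the longest run held 32 to 113 glycines. In the 6 type IV genes 4.054% had 54 bases and the run held 39 to 66.

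Collagen RNA was mesenchymal above all. The 44 genes together took 1.75%, 3.13% and 4.44% of all counts in OM-like sums (lowest, median and highest of 6 plates), 0.829%, 0.877% and 1.24% in glia-like sums, 0.282% and 0.285% in the 2 HC-like sums of E18.5, and 0.0124% to 0.0594% in SGN-like sums of 8 plates (the same 6 and P3). These ranges of the 4 classes do not overlap. The 10 OM-like wells of E16.5 replicate 2 stood at 0.558% and the glia-like wells of E16.5 replicates 1 and 2 at 0.476% and 0.347%, below the other sums of their class, so that OM-like and glia-like ranges overlap when they are included. Otic epithelium-like sums, at 0.484% to 1.36% over 7 plates, overlapped the glia-like range. Between 29 and 30 members reached 10 CPM in OM-like sums, 26 to 29 in glia-like sums, 14 to 15 in HC-like sums of E18.5 and 6 to 15 in SGN-like sums. The HC-like sums of E16.5 replicates 1 and 3 held only 3 and 5 wells. Collagens took 0.308% and 0.124% of their counts, with 17 and 9 members at 10 CPM. Among OM-like, glia-like and SGN-like sums of the 6 plates and HC-like sums of E18.5, by mean CPM/kb, 29 members had their highest level in OM-like wells, 12 in glia-like wells (Col10a1, Col11a1, Col14a1, Col19a1, Col20a1, Col22a1, Col23a1, Col25a1, Col28a1, Col4a4, Col5a1 and Col5a3), 2 in HC-like wells (Col6a4 and Col7a1) and 1 in SGN-like wells (Col6a5). The last rests on little, since Col6a5 was at 0 to 1.35 CPM in the 6 SGN-like sums. Other highest levels were low too, such as Col6a4 in HC-like wells (0.247 CPM/kb), Col4a4 and Col19a1 in glia-like wells (0.524 and 0.570) and Col17a1 in OM-like wells (0.138). Of the 12 glial members only 5 were called against OM-like wells, as given below.

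**Figure D1:**
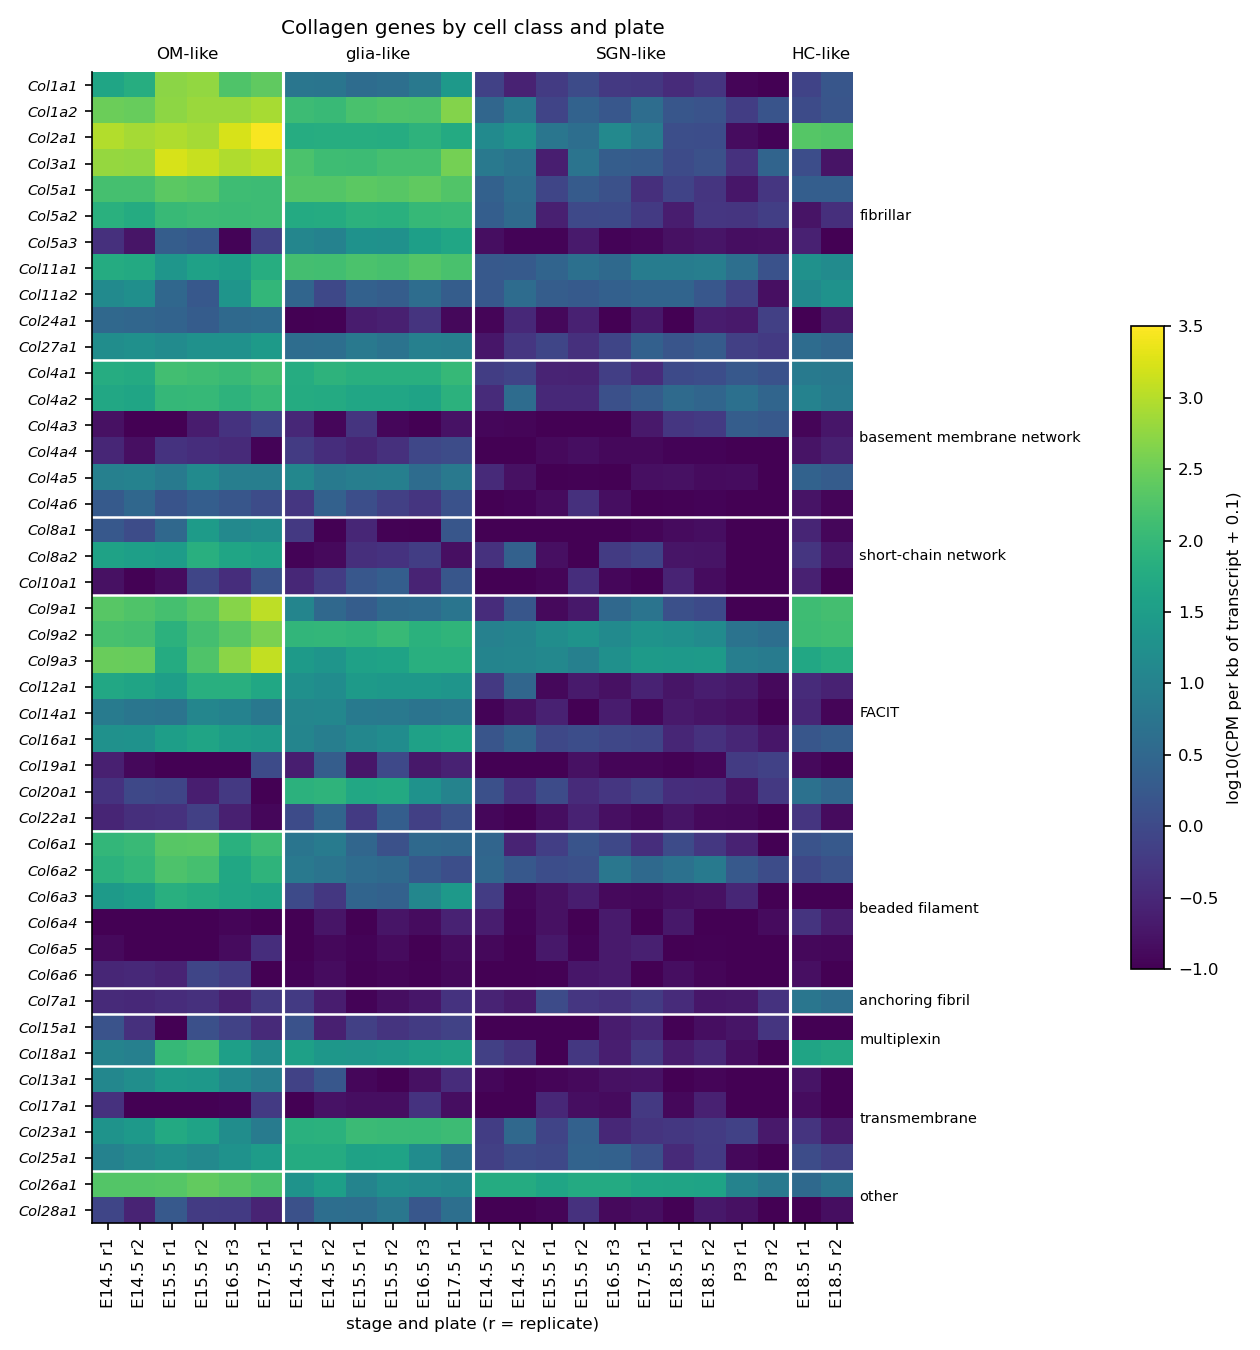
Levels of the 44 collagen genes, grouped by family (rows), in class sums of single plates (columns), as log10 of CPM per kilobase of transcript plus 0.1. OM-like columns are brightest for Col2a1, Col3a1 and Col1a2, glia-like columns for Col5a1, Col1a2 and Col3a1, and HC-like columns for Col2a1, Col9a1 and Col9a2. SGN-like columns of the embryonic stages are brightest for Col26a1.

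Type II collagen led the mesenchyme. Col2a1, the cartilage fibril chain, stood at 1338 ± 818 CPM/kb in OM-like sums (SD, n = 6 plates), ahead of Col3a1 of loose connective tissue (1044 ± 423), Col1a2, the second chain of type I collagen (546 ± 212), and 2 chains of type IX, Col9a3 (427 ± 416) and Col9a1 (389 ± 371). Neighbours in this order differed by less than their spread over plates, except for the step from Col3a1 to Col1a2. In single plates Col2a1 was at 4814 and 4060 CPM at E14.5, 4788 and 4064 at E15.5, 8668 at E16.5 and 14589 at E17.5. Col3a1 was at 3421 and 3224 CPM at E14.5, 9245 and 7507 at E15.5, 5156 at E16.5 and 6309 at E17.5. The highest plate was therefore the E17.5 plate for Col2a1 and an E15.5 plate for Col3a1. Col2a1 RNA was found in 98.2% to 100% of OM-like wells of a plate, and Col3a1 RNA in 91.8% to 100%.

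Glia-like wells led with a partly different set. Col5a1, the main chain of type V collagen and a fibril regulator, was highest at 214 ± 24.1 CPM/kb (SD, n = 6), followed by Col1a2 (204 ± 132), Col3a1 (178 ± 89.9), Col11a1, a chain of type XI collagen (161 ± 21.7), and Col23a1, a transmembrane collagen (102 ± 22.4). Col5a1 was at 1647 and 1687 CPM at E14.5, 1926 and 1779 at E15.5, 2145 at E16.5 and 1615 at E17.5. Col11a1 was at 1103 and 1043 CPM at E14.5, 1296 and 1184 at E15.5, 1514 at E16.5 and 1251 at E17.5. Both varied little between plates, and Col5a1 was present in 97.0% to 100% and Col11a1 in 96.3% to 98.7% of the glia-like wells. Col1a2 and Col3a1 varied more, since the E17.5 plate held 2497 and 1992 CPM against at most 979 and 934 in the others.

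On the 6 SS2_20 plates neurons carried 1 collagen well above the rest. Col26a1, a short secreted collagen outside the large families, stood at 52.7 ± 6.51 CPM/kb in SGN-like sums (SD, n = 6), ahead of the type IX chains Col9a2 (15.1 ± 4.83) and Col9a3 (14.9 ± 7.36), Col2a1 (10.8 ± 6.06) and Col11a1 (3.63 ± 2.21). Col26a1 was at 160 CPM on both E14.5 plates, 123 and 158 at E15.5, 155 at E16.5 and 123 at E17.5, and was found in 78.3% to 95.7% of wells. In every plate it lay above Col9a2, which was at 27.6 to 60.4 CPM, and the next 3 members differed from each other by less than their spread over plates. The 14 mesenchymal markers summed to 37.5 to 104 CPM and the 9 glial markers to 28.1 to 182 CPM in the same SGN-like sums, and their part in the low levels of Col2a1 or Col3a1 in neurons was not tested.

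To ask which members separated mesenchyme and glia from neurons, class sums of a plate were compared within plates. Against SGN-like wells, 37 of the 41 members tested were higher in OM-like wells and none was lower (edgeR quasi-likelihood test, Benjamini-Hochberg adjusted p under 0.05), where 56.3% of all 14672 genes tested were called and 28.8% were higher. The median log2 fold change of the members was 5.37, against -0.02 over all genes. The 4 tested members that were not called were Col4a3, Col7a1, Col19a1 and Col20a1, and Col6a4, Col6a5 and Col17a1 were too low to be tested in any comparison of these plates. Col1a1, the main chain of bone and skin collagen, rose by 8.84 ± 0.78 (log2, SE; adjusted p = 9.2e-07). It lay at 261 and 370 CPM at E14.5, 3091 and 3450 at E15.5, 1065 at E16.5 and 1499 at E17.5 in OM-like sums and at 0.991 to 5.66 CPM in SGN-like sums. An E14.5 cluster rich in Col1a1 was left unnamed, and with its wells counted the E14.5 levels without TMM scaling were 907 and 1032 CPM in place of 269 and 379 CPM. Col6a3, the long chain of type VI collagen, and Col13a1, a membrane collagen, were higher by 8.85 ± 1.21 (adjusted p = 4.1e-05) and 9.25 ± 1.37 (adjusted p = 8.0e-05). Col8a1, a sheet-forming collagen, had 4092 counts in OM-like and 1 count in SGN-like wells, a ratio of 3365 with a counting interval of 604 to 132914 (95%, exact Poisson).

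Glia-like wells shared most of this difference. Of 41 members tested, 32 were higher in glia-like than in SGN-like wells and 1 was lower, where 56% of all genes were called, 29.9% higher and 26% lower. The members' median was 5.01 and that of all genes 0.06. Col5a3, the third chain of type V collagen, differed most (9.71 ± 1.03, adjusted p = 4.7e-06): glia-like sums held 59.6 to 284 CPM and SGN-like sums 0.0548 to 0.701 CPM. The basement membrane chains followed, with Col4a1 at 398 to 670 against 1.15 to 4.76 CPM (7.56 ± 0.48, adjusted p = 5.2e-08) and Col4a5 higher by 7.37 ± 0.70 (adjusted p = 1.7e-06). Col5a1 (7.21 ± 0.51) and the FACIT collagen Col14a1 (7.17 ± 0.71) completed the 5 largest differences. The lower member was Col26a1, at 29.8 to 95.8 CPM in glia-like and 123 to 160 CPM in SGN-like sums, a fall of 1.54 ± 0.19 on the log2 scale (adjusted p = 1.5e-05). Col26a1 was therefore the exception among collagens: lowest in glia-like wells, intermediate in SGN-like wells and highest in OM-like wells, where it rose by 2.08 ± 0.19 over SGN-like wells (457 to 734 CPM).

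The comparison of mesenchyme with glia divided the collagens. Between OM-like and glia-like wells 17 of 41 members were higher and 5 lower in OM-like wells, where 26% of all genes were called (12.5% higher, 13.5% lower). The members' median was 0.82 and that of all genes -0.07. Of the 11 fibrillar genes 7 were higher in OM-like wells (Col1a1, Col1a2, Col2a1, Col3a1, Col11a2, Col24a1 and Col27a1) and 2 were lower (Col5a3 and Col11a1). The type VI chains Col6a1, Col6a2 and Col6a3, which assemble together, were higher in OM-like wells, by 5.21 ± 0.65, 4.99 ± 0.62 and 3.54 ± 1.00, the last call being lost without E14.5 replicate 2 or without either E15.5 plate. None of the 6 type IV chains and neither multiplexin, Col15a1 and Col18a1, was called. All 3 type IX chains were higher (Col9a2 not without E16.5 replicate 3 or E17.5), with Col9a1 differing most (5.99 ± 0.78, adjusted p = 1.2e-04), at 564 to 4234 CPM in OM-like and 7.91 to 42.2 CPM in glia-like sums.

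**Figure D2:**
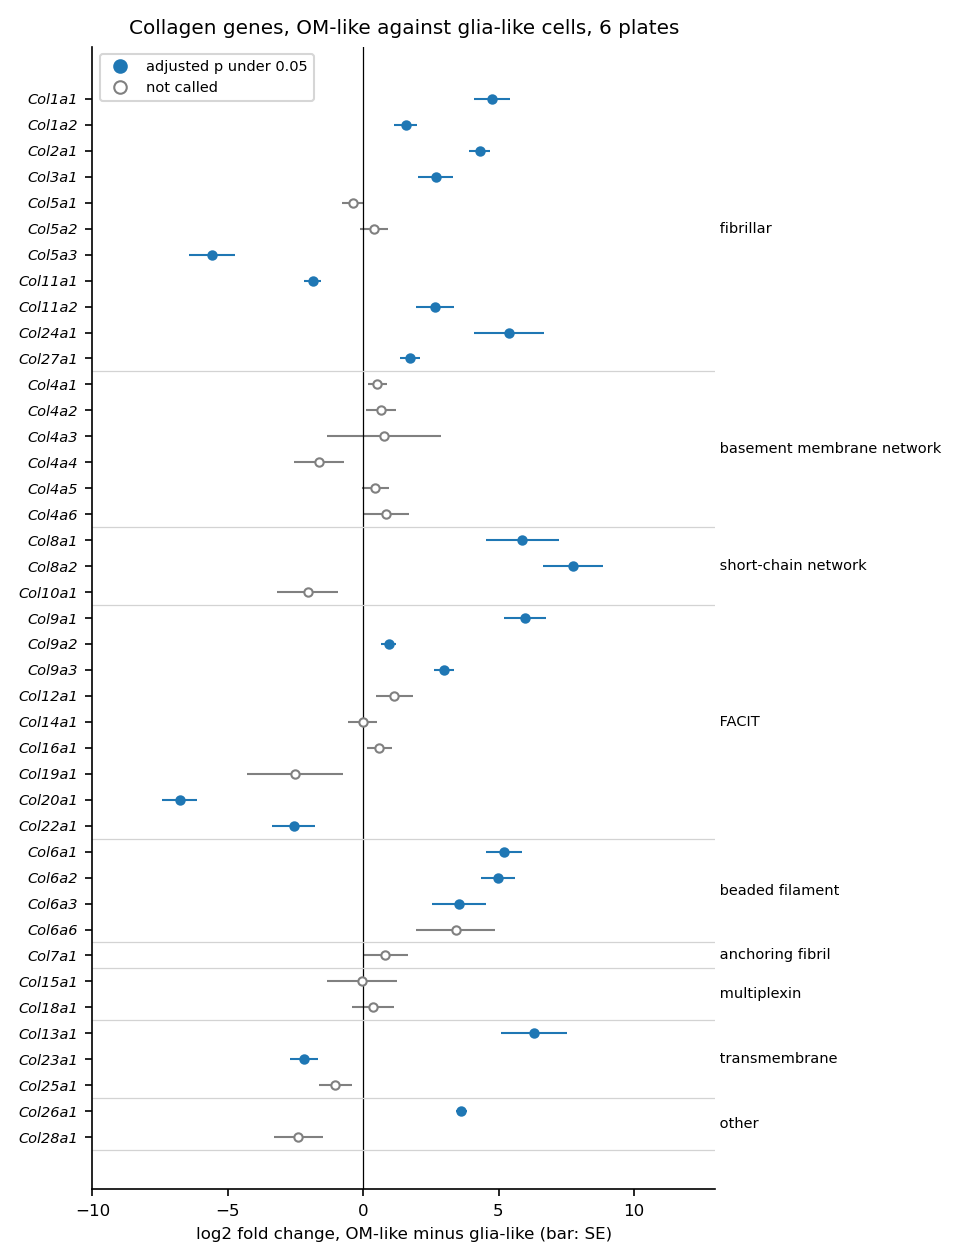
Log2 fold change of each tested collagen gene between OM-like and glia-like wells of 6 plates (positive: higher in OM-like), with its standard error, ordered by family; filled points have an adjusted p under 0.05. Col8a2 lies farthest to the right at 7.75 and Col20a1 farthest to the left at -6.78, and the 6 type IV genes have open points.

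The largest difference belonged to Col8a2, a short-chain collagen of Descemet's membrane in the eye, at a median of 164 and up to 303 CPM in OM-like sums and at 0.0372, 0.779 and 2.46 CPM (lowest, median and highest) in glia-like sums (7.75 ± 1.11, adjusted p = 2.4e-04). Col13a1 (6.31 ± 1.22) and Col8a1 (5.88 ± 1.36) were the other large differences toward mesenchyme. Toward glia, Col20a1, a FACIT collagen of unclear function, was at 50.8, 259 and 417 CPM in glia-like and 0, 2.04 and 4.20 CPM in OM-like sums (-6.78 ± 0.66, adjusted p = 1.2e-05). Col5a3 (-5.58 ± 0.84), Col22a1 (-2.56 ± 0.80), Col23a1 (-2.17 ± 0.52) and Col11a1 (-1.87 ± 0.30) were also lower in OM-like wells. The 2 classes thus did not overlap in Col8a2, Col13a1, Col20a1, Col5a3, Col23a1 and Col11a1, while they overlapped in Col8a1 and Col22a1.

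Genes that act on collagen chains were read beside their substrates. Of 46 tested genes of collagen modification, export, processing, cross-linking, binding and degradation, 36 were higher and 2 lower in OM-like than in SGN-like wells (over all genes 28.8% and 27.5%), 27 higher and 5 lower in glia-like than in SGN-like wells (29.9% and 26%), and 25 higher and 4 lower in OM-like than in glia-like wells (12.5% and 13.5%). All 5 genes of folding and export were higher in OM-like than in SGN-like wells, led by the prolyl isomerase gene Fkbp10 (6.84 ± 0.29), and 12 of 15 modifying genes were, led by Crtap (4.92 ± 0.21), whose product belongs to the prolyl 3-hydroxylation complex. Between mesenchyme and glia, Lox, the lysyl oxidase that cross-links fibrils, was higher in OM-like wells by 12.08 ± 1.12. The procollagen peptidase gene Adamts14 followed (9.68 ± 1.26), together with the gelatinase gene Mmp9 (9.53 ± 1.16) in the degradation group. Lair1, an inhibitory collagen receptor, was lower by 12.15 ± 1.85. In glia the largest called receptor difference over neurons was that of Adgrg6, an adhesion G protein-coupled receptor that binds type IV collagen and is needed for myelination (8.58 ± 0.88). The propeptide peptidase gene Adamts2 was lower in glia-like than in SGN-like wells, by 6.26 ± 0.54 on the log2 scale.

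Within the mesenchyme the collagens divided by cluster. At E14.5, 6 OM-like clusters and 1 cluster left unnamed held 34 to 96 wells over both plates, and the values below are CPM of the summed wells, not TMM-scaled, for replicates 1 and 2. They are a description, with no test, since wells of a plate share their source. The cluster led by Acan and Hapln1, genes of cartilage matrix, had Col2a1 at 13535 and 12328, Col9a3 at 3512 and 3467, Col12a1, a FACIT collagen of dense tissue, at 2838 and 2804, and Col11a1 at 1767 and 1951. The cluster led by Gdf5 and Lhx8 held the most Col9a1 (2273 and 1871) and Col8a2 (578 and 354) and the least Col26a1 (77.5 and 48.8). The clusters led by Coch and Car2 and by Snai1 and Otor held the most Col26a1, at 708 and 954 and at 688 and 849, and little Col1a1, at 4.27 and 0.554 and at 0.186 and 0.256.

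The type I collagen genes sat elsewhere. The unnamed cluster, led by Aldh1a2 and Igf1, had Col1a1 at 5595 and 5329 CPM, Col3a1 at 10237 and 9674, Col6a1 at 1596 and 1476 and Col8a1 at 194 and 88.0, with Col2a1 at 359 and 328, the lowest of the 7 clusters on both plates. In the 6 OM-like clusters Col1a1 did not pass 911 CPM. The cluster led by Thsd4 and Nrp2 held the most of the membrane collagens Col13a1 (92.8 CPM on replicate 1) and Col23a1 (243 and 353) and of Col18a1 (179 and 154), the source of endostatin, while Col13a1 was at 0 in the Acan cluster on both plates. In 28 of 44 members the highest cluster was the same on both plates. These include members near the floor, such as Col4a4 and Col6a5, and the share over all genes was not taken.

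**Figure D3:**
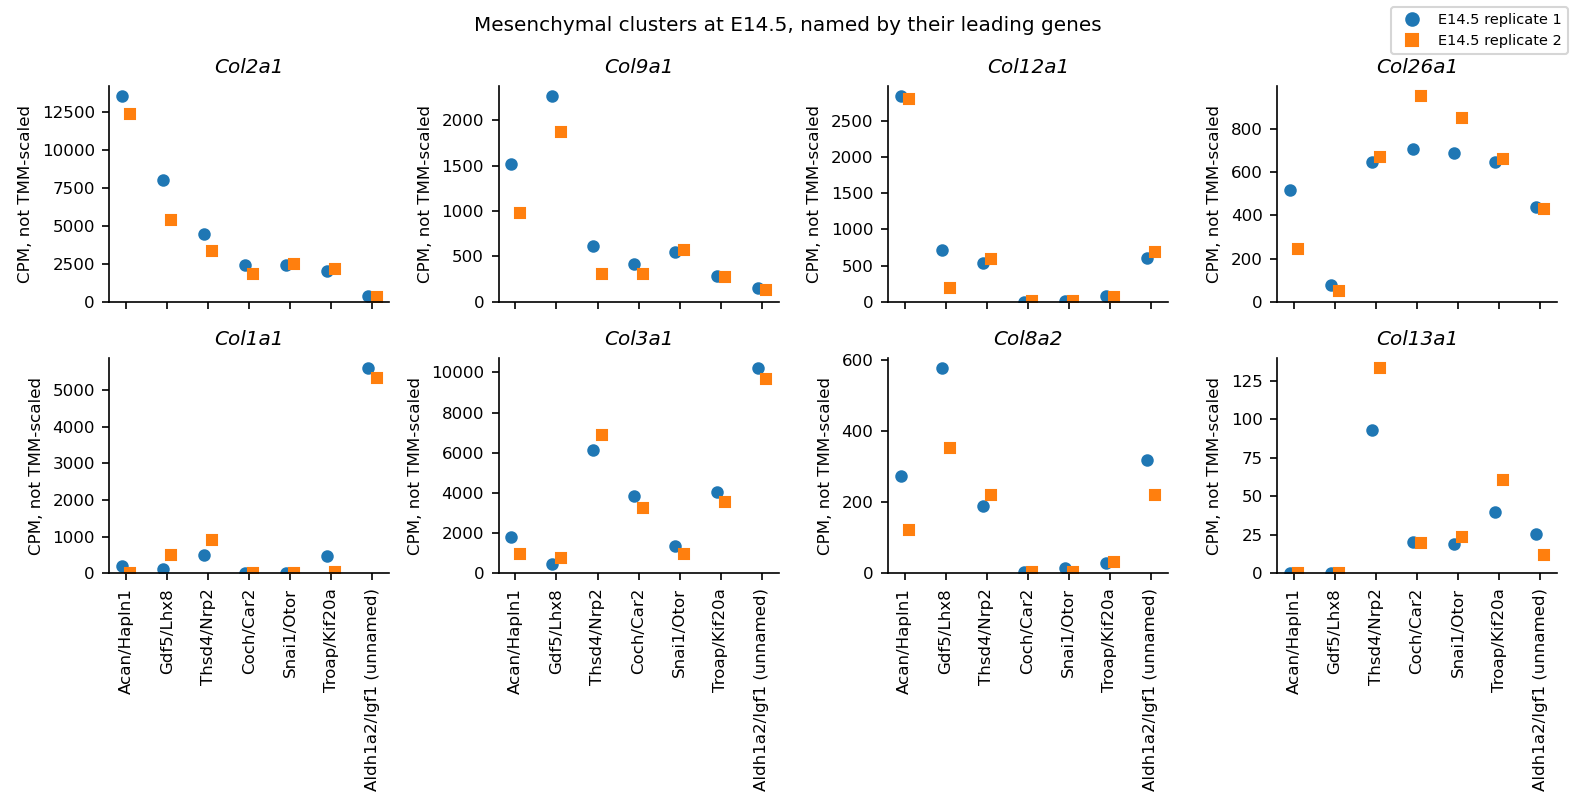
Summed-well CPM (not TMM-scaled, linear axes from 0) of 8 collagen genes in the 7 mesenchymal clusters of E14.5, named by 2 leading genes, with 1 point for each plate. Col2a1 and Col12a1 peak in the Acan/Hapln1 cluster, Col9a1 and Col8a2 in the Gdf5/Lhx8 cluster, Col26a1 in the Coch/Car2 cluster, Col13a1 in the Thsd4/Nrp2 cluster, and Col1a1 and Col3a1 in the unnamed Aldh1a2/Igf1 cluster.

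Before birth 10 of 39 tested members were called in neurons, a share near that over all genes. Between E14.5 (2 plates) and E17.5/E18.5 (3 plates), 5 members rose and 5 fell in SGN-like wells, where 21.6% of all genes tested were called (12.8% higher, 8.88% lower). Stage cannot be told apart here from the dissection, which differed, or from the driver, labelled TrkCcre on 1 E14.5 plate and uncertain on the other. The E18.5 plates also belong to another plate series than the E14.5 plates. Median genes per SGN-like well were 8449 and 8458 at E18.5 and 5775 and 5795 at E14.5. The members' median was -0.16 and that of all genes 0.03. Col9a3 rose from 32.8 and 33.4 CPM to 87.1, 83.6 and 84.9 CPM (1.35 ± 0.18, adjusted p = 2.4e-04) and Col11a1 from 13.2 and 13.9 to 58.2, 59.0 and 64.9 CPM (2.15 ± 0.55, adjusted p = 0.014). Col27a1, a fibrillar collagen of cartilage, rose from 0.668 and 3.10 to 17.4, 10.8 and 13.9 CPM (2.89 ± 0.69, adjusted p = 0.010), and Col9a2 from 27.6 and 30.4 to 60.2, 52.7 and 43.8 CPM (0.84 ± 0.21, adjusted p = 0.014). Col4a3, a type IV chain known from the basement membranes of kidney and cochlea, rose from 0.182 and 0.132 to 0.880, 3.54 and 4.10 CPM (4.14 ± 1.04, adjusted p = 0.015). In each of these genes the groups did not overlap. This held for 22 of the 44 members, called or not, and the share over all genes was not taken.

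The members that fell in neurons were Col12a1 (-3.77 ± 0.93, adjusted p = 0.012), Col5a2 (-3.06 ± 0.76, adjusted p = 0.013), Col5a1 (-2.77 ± 0.60, adjusted p = 0.0061), Col2a1 (-2.46 ± 0.74, adjusted p = 0.031) and Col16a1 (-2.26 ± 0.68, adjusted p = 0.032). Col12a1 went from 5.16 and 33.7 CPM to 1.89, 0.891 and 1.53 CPM, and Col5a1 from 20.5 and 33.5 to 2.57, 5.95 and 3.39 CPM. The 14 mesenchymal markers summed to 37.5 and 104 CPM in these sums at E14.5 and to 80.9, 89.9 and 103 CPM at E17.5 and E18.5, and their part in the falls was not tested. Fewer members were called without E14.5 replicate 1 or 2, or with the E17.5 plate as the only later one (SS2_20 plates). Each of these fits left 1 plate in a group, and a smaller share of all genes was called too. The SGN/glia mixed wells are lacking at E14.5 and number 411 at E18.5. When they were counted as neurons, 18 members were called, 17 of them higher, where 19% of all genes were called. Col5a2 then turned to a rise of 3.04 (adjusted p = 0.050), with Col5a1 at 2.55 (adjusted p = 0.075).

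From E17.5/E18.5 to P3 the neuronal collagens fell. Of 39 members 12 were lower and 2 higher at P3, where 32.7% of all genes were called (15.6% higher, 17.1% lower), with a median of -1.50 for the members and -0.10 for all genes. Col26a1 fell from 123, 116 and 112 CPM to 28.2 and 18.3 CPM (by 2.32 ± 0.20 on the log2 scale, adjusted p = 1.8e-05). Col9a3 fell from 87.1, 83.6 and 84.9 to 25.7 and 22.0 CPM and Col9a2 from 60.2, 52.7 and 43.8 to 14.6 and 11.9 CPM (by 1.84 ± 0.18 and 1.97 ± 0.22). Col2a1 went from 37.8, 5.55 and 5.36 to 0.198 and 0.0511 CPM (by 6.66 ± 1.16, adjusted p = 0.0010). Col9a1 had 620 counts before birth and 0 at P3, so that it was at least 204-fold lower, and Col17a1 and Col8a2 were likewise at 0 counts, at least 28.0-fold and at least 23.7-fold lower (floor of 3 counts over the group). Without the E17.5 plate, which held 299 of the Col9a1 counts, they were at least 124-fold, 18.2-fold and 10.4-fold lower. In that fit the calls of Col17a1 and Col8a2 were lost and that of Col9a1 was kept, where 26.4% of all genes were called. The same 2 calls were also lost when the SGN/glia mixed wells were counted as SGN-like. Col1a1, Col11a1, Col11a2, Col25a1 and Col6a2 were the other lower members.

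The 2 higher members went against the trend at P3. Col4a3 rose again, to 17.3 and 14.9 CPM (2.50 ± 0.79, adjusted p = 0.031), and Col19a1, a FACIT collagen known from interneurons, went from 0.0677, 0.0288 and 0.0838 to 2.21 and 2.71 CPM (5.28 ± 1.62, adjusted p = 0.028). Both calls were lost when any 1 of these 5 plates was left out, and fewer members and a smaller share of all genes were then called. Col4a4, whose gene lies head to head with Col4a3 with 71 bases between them, stayed at 0 to 0.451 CPM in the 12 SGN-like sums and was at 0 counts at P3. Col4a3 also stood at 17.9 and 16.7 CPM in the SGN/glia mixed wells of P3, close to the SGN-like level. Stage and plate series cannot be told apart here, since all P3 wells came from 1 earlier series that was sequenced more deeply (median 844186 and 1092427 counts per SGN-like well, against 228326 to 466081 at E17.5 and E18.5).

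**Figure D4:**
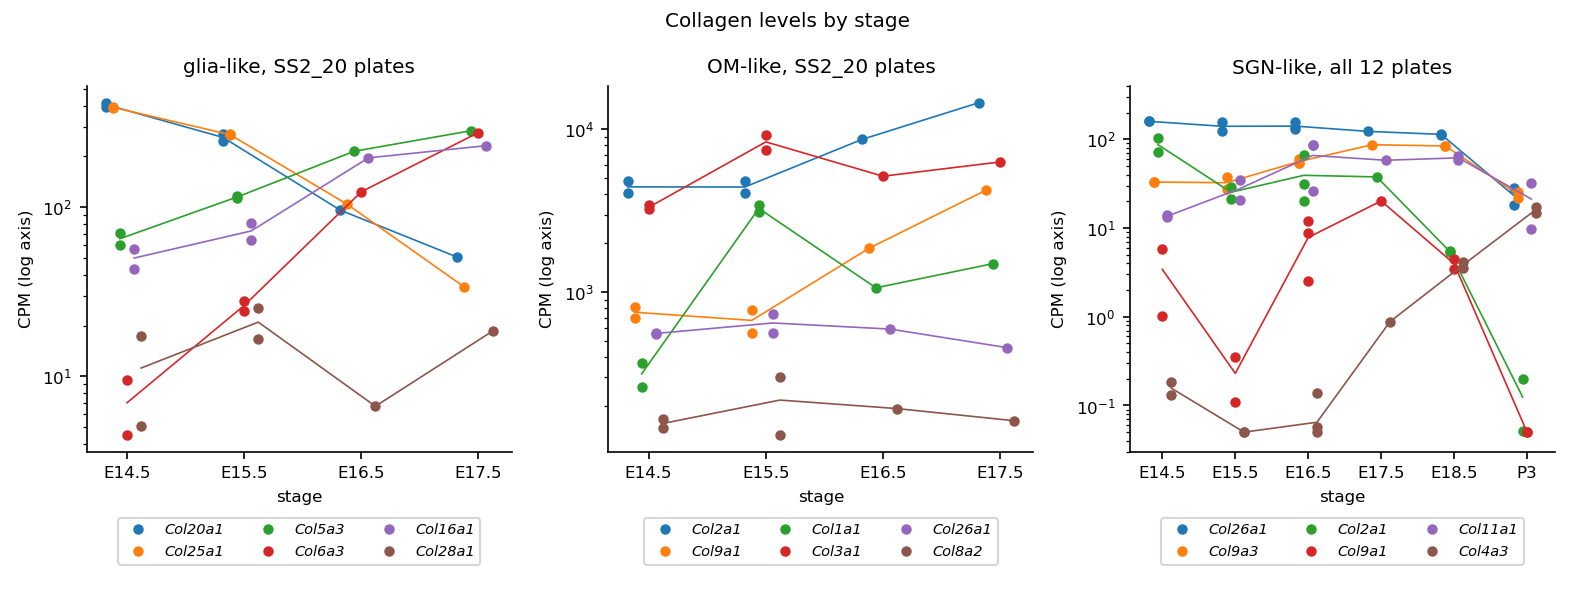
CPM (log axes) by stage of 6 collagen genes each in glia-like wells and OM-like wells of the SS2_20 plates and in SGN-like wells of all 12 plates; each point is a plate and lines join the stage means, and SGN-like values under 0.05, including 0, are drawn at 0.05. Col20a1 and Col25a1 descend and Col5a3, Col6a3 and Col16a1 climb in glia-like wells, Col2a1 and Col9a1 are highest at E17.5 in OM-like wells, and Col4a3 climbs while Col26a1 falls in SGN-like wells at P3.

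Glia showed stage courses that depended on which plates were read. Between E14.5 (2 plates) and E16.5/E17.5 (4 plates) 0 of 43 members and 0% of all genes passed the edgeR test, with 6 members and 1748 of 15668 genes at an unadjusted p under 0.05. DESeq2 called 4 members (Col20a1, Col25a1, Col6a2 and Col6a3), with 5.04% of all genes called. Without the 15 wells of E16.5 replicates 1 and 2 that carried neuronal markers, the SS2_20 plates alone gave 7 calls in edgeR, where 0.874% of all genes were called. Of these Col6a3 (4.80 ± 0.50), Col16a1 (2.06 ± 0.21), Col5a3 (1.90 ± 0.18), Col9a3 (1.41 ± 0.16), Col5a2 (0.88 ± 0.10) and Col23a1 (0.63 ± 0.10) rose and Col20a1 fell by 2.49 ± 0.29 on the log2 scale, at adjusted p of 0.016 to 0.044.

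In those plates the values ordered by stage. Stage cannot be told apart here from the driver at E14.5 or from the dissection, of the modiolus at E14.5 and E15.5 and of the spiral ganglia later. The 14 mesenchymal markers in the same glia-like sums also differed by stage, at 116 CPM at E14.5 (replicate 1), 415 and 240 at E15.5, 589 at E16.5 and 657 at E17.5, and their part in the rises was not tested. Col6a3 was at 9.48 and 4.49 CPM at E14.5, 28.1 and 24.5 at E15.5, 124 at E16.5 and 277 at E17.5. Col5a3 was at 71.0 and 59.6, then 117 and 113, then 215 and 284 CPM. Col16a1, a FACIT collagen, went from 56.8 and 43.5 through 63.7 and 81.3 to 196 and 231 CPM. Col20a1 moved the other way, from 395 and 417 through 247 and 271 to 96.3 and 50.8 CPM, and Col25a1, a membrane collagen of developing neurons and muscle, from 393 and 389 through 267 and 271 to 104 and 33.8 CPM, without passing the test in the SS2_20 plates. The 2 plates of a stage differed by less than the step from E14.5 to E15.5 in Col20a1, Col25a1, Col5a3 and Col6a3. The 2 sums of E16.5 replicates 1 and 2 lay far from this course for Col5a3 (47.0 and 24.6 CPM) and Col6a3 (46.0 and 19.5 CPM).

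In the mesenchyme no stage change was called. Of 41 members 0 passed between E14.5 and later stages, with 0% of all genes called and 1 member and 373 of 14125 genes at an unadjusted p under 0.05; DESeq2 called 1 member, Col8a1, with 0.312% of all genes. Col8a1 was at 8.25 and 5.11 CPM at E14.5 and at 16.2, 148, 16.9, 67.5 and 80.8 CPM later (3.37 ± 1.02, adjusted p = 0.999 in edgeR). Col9a1 stood at 817 and 691 CPM at E14.5, 564 and 780 at E15.5, 1860 at E16.5 replicate 3 and 4234 at E17.5. The later plates spread widely, from 157 to 4234 CPM for Col9a1. E16.5 replicate 2, whose OM-like wells carried neuronal markers, was the lowest later plate for Col9a1 and for Col2a1 (1039 CPM), and without it 0 members were called as well. The change after E14.5 was also compared between classes, and 0 of 41 members passed in any of the 3 differences, where 0.17% (OM-like minus SGN-like), 0.164% (glia-like minus SGN-like) and 0.0409% (OM-like minus glia-like) of all genes did; 13, 16 and 7 members had an unadjusted p under 0.05.

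Hair cell-like wells carried type II and type IX collagens. Their 5 highest members at E18.5 were Col2a1 (198 CPM/kb, its 2 plates given below), Col9a1 (134 ± 12.8, SD, n = 2 plates), Col9a2 (127 ± 4.05), Col9a3 (57.5 ± 9.74) and Col18a1 (47.6 ± 6.27). Against the SGN-like wells of the same 2 plates 17 of 34 tested members were higher and 4 lower, where 57.4% of all genes were called (29.6% higher, 27.9% lower), with a median of 1.16 for the members and -0.01 for all genes. Col18a1 was at 242 and 291 CPM in HC-like and 0.661 and 1.19 CPM in SGN-like sums (8.16 ± 0.29, adjusted p = 6.8e-06). Col2a1 was at 1060 and 959 against 5.55 and 5.36 CPM (7.57 ± 0.15, adjusted p = 3.8e-06), and Col9a1 at 480 and 550 against 4.46 and 3.48 CPM (7.06 ± 0.19, adjusted p = 4.4e-06). Col4a5, a basement membrane chain, was at 0.374 and 0.230 CPM in SGN-like sums and higher in HC-like sums by 5.64 ± 0.51. Col7a1, the anchoring fibril collagen, was at 52.7 and 40.1 against 2.36 and 0.775 CPM (4.96 ± 0.54, adjusted p = 4.4e-04).

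The 4 lower members were Col26a1 (9.39 and 15.1 against 116 and 112 CPM, -3.17 ± 0.24), Col6a2 (-2.42 ± 0.34), Col4a3 (-2.99 ± 0.84) and Col6a3, which had 0 counts in HC-like wells and 47 in SGN-like wells, at least 3.22-fold lower. These 2 classes shared plates but were fitted without a plate block, and with the block Col6a3, Col1a1 and Col4a4 were no longer called. A fit that shares the spread with SGN-like sums of all stages called 15 members, where 41.7% of all genes were called. The SGN/glia mixed wells bore on some of these calls: when they were counted as SGN-like, Col4a1, Col4a2, Col5a1, Col11a1 and Col16a1 were called in the opposite direction. Col11a1 was among the higher neuronal members at E18.5, so this was not confined to low-level members. Leaving out replicate 1 or 2 of E18.5 in that shared-spread fit left 1 plate in a group. Fewer members and a smaller share of all genes were then called. Col2a1, Col9a1, Col18a1 and Col7a1 kept their calls in every alternative run.

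The HC-like wells were not uniform. Values of epithelial clusters below are means of the CPM of single wells, not TMM-scaled. In 2 of their 5 clusters (35 wells) Gata3 was at 20.5 and 2.45 CPM, against 650 to 1177 CPM in the other 3, and 1 of the 2 held Ocm at 1627 CPM. The study separated vestibular from cochlear hair cells by marker genes and left the vestibular ones out. Here the wells were not assigned to either, so the HC-like sums may hold both. With the Gata3-positive clusters alone 19 members were called, where 53.3% of all genes were. Col2a1, Col9a1, Col9a2, Col9a3, Col18a1 and Col7a1 were among them. The 7 otic epithelium-like markers summed to 5324 to 6175 CPM in the HC-like sums of E18.5, and they include Otog and Tectb, which encode tectorial membrane proteins. Across the 7 epithelial clusters, pooled over stages, Col2a1 ran from 360 to 5961 CPM and was highest in an otic epithelium-like cluster with Otog at 3685 CPM. The 2 HC-like clusters with the least Otog (369 and 336 CPM) had Col9a1 at 61.1 and 104 CPM, against 379 to 915 CPM in the other 3 HC-like clusters. Col7a1 was not ordered this way: it was at 62.2, 120 and 71.1 CPM in the 3 Gata3-positive clusters and lower in both Gata3-low clusters, at 11.2 CPM in 1 of them. When only the 2 low-Otog clusters stood for hair cells, Col2a1 (6.51 ± 0.20), Col18a1 (7.35 ± 0.66), Col9a1 (4.72 ± 0.57), Col9a2 (1.40 ± 0.28) and Col7a1 (5.43 ± 0.61) remained higher than in SGN-like wells, while Col9a3 did not (-0.11 ± 0.31). In that fit 17 members and 45% of all genes were called.

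Collagen pathway genes were counted in the remaining comparisons too. In HC-like against SGN-like wells 23 of 41 were higher and 5 lower (all genes 29.6% and 27.9%). By role, the largest called changes were those of the receptor gene Adgrg6 (10.60 ± 0.49), Lox (8.07 ± 0.85) and the degradation gene Mmp9 (7.04 ± 0.96). The other roles were led by the collagen-binding glycoprotein gene Sparc (6.71 ± 0.18), Adamts14 (6.48 ± 0.84) and the modifying gene Plod1 (4.68 ± 0.23). Lair1, another receptor gene, was higher by 9.84 ± 1.38. In SGN-like wells from E17.5/E18.5 to P3 13 of 42 fell and 2 rose (all genes 17.1% and 15.6%), among them Serpinh1, the chaperone of procollagen (-2.29 ± 0.36), Mmp2 (-2.54 ± 0.45) and Lox (-7.80 ± 2.14). Before birth 6 of 42 rose, led by P4ha3, a prolyl hydroxylase subunit gene (2.84 ± 0.37), and 4 fell (all genes 12.8% and 8.88%). Neither glia-like nor OM-like wells had a called pathway gene over stage.

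Collagen genes that lie side by side offered a last comparison. Col4a1 and Col4a2, whose products wind together, start 22 bases into each other on opposite strands of chromosome 8. The shared stretch, chr8:11312805-11312826 (RefSeq, GRCm38.p6, plus strand), is shown with its 4 CG pairs in capitals, since both genes begin in it.
Col4a1 and Col4a2: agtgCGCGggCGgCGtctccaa
Over the 18 sums of OM-like, glia-like and SGN-like wells the log2(CPM + 1) of the pair had a Pearson r of 0.97, and the points share plates, so that this is a description. The type V and III neighbours Col5a2 and Col3a1 (24614 bases apart, r = 0.96), Col6a1 and Col6a2 (85161 bases, r = 0.93) and Col4a5 and Col4a6 (1308 bases, r = 0.87) were also alike. Col4a3 and Col4a4 (r = 0.03), Col9a1 and Col19a1 (9205 bases, r = 0.09) and the 3 pairs among Col6a4, Col6a5 and Col6a6 (r of -0.31 to 0.14) were not. Each of these pairs held a member near the floor, so that a low r says little about them. The highest class means were 0.203 (Col4a3), 0.524 (Col4a4), 0.570 (Col19a1), 0.247 (Col6a4), 0.0645 (Col6a5) and 0.317 CPM/kb (Col6a6). Over all 946 pairs of members the median r was 0.53, so that neighbours are to be read against this. As strand use in counting is not stated in the sources used here, reads in the Col4a1 and Col4a2 overlap, and in the overlaps of Col9a3 with Tcfl5, Col18a1 with Slc19a1 and Col10a1 with Nt5dc1, could not be assigned by strand.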

How the data were processed

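The authors deposited a table of raw read counts per gene for 4992 wells of 13 plates; 1 plate matched no sample and was not used. Reads had been demultiplexed, aligned with STAR to mm10 with spike-in sequences, and kept where uniquely mapped, and counted with featureCounts; the annotation and strand setting are not given in the sources used here. Here wells with at least 1000 genes and under 5% spike-in counts were kept and clustered by stage (scanpy 1.11.5, Leiden resolution 1) without collagen or collagen pathway genes; clusters were named from marker lists, and no doublet caller was run. Wells carrying markers of 2 classes were kept, and leaving them out was an alternative.

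Counts were summed per class and plate (at least 5 wells; 3 for HC-like), because wells are not replicates, and tested with edgeR 4.0.16 (quasi-likelihood, TMM scaling, filter on low counts, R 4.3.3) over all genes, with Benjamini-Hochberg adjusted p under 0.05 called. Comparisons between OM-like, glia-like and SGN-like wells held the plate as a block, since their wells were sorted into the same plate; comparisons of stages had none. Sums held 1741949 to 93663085 counts. Animals were pooled and plates may share them, so p-values measure the spread between plates, which may be technical. Intervals and floors cover counting error only, and reads carry no molecular identifiers. The fitting functions were also run on simulated counts with known changes and a fixed spread, as a check of the code only. DESeq2 1.42.0, other scalings, filters, clusterings and leaving out each plate were tried.

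The members and gene lists were chosen with earlier results of these data known. Genes named were the 5 highest per class by CPM/kb, the highest of each family, the 5 called members with the largest change in each comparison and the largest called change of each pathway role; others were named after their values were seen.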

Additional observations from a re-analysis of the deposited data

How the results depend on the processing

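In the comparisons of OM-like, glia-like and SGN-like wells the number of members called stayed within 1.5 times under every alternative; leaving out 1 plate gave 33 to 36 (OM-like against SGN-like), 30 to 33 (glia-like against SGN-like) and 18 to 22 (OM-like against glia-like, where Col1a2, Col6a3, Col8a1, Col9a2, Col11a2 and Col22a1 each lost the call at least once), and without the replicate block for the plate 37, 33 and 23 were called. For HC-like against SGN-like wells the replicate block left 18 members, without Col1a1, Col4a4 and Col6a3, and leaving out 1 plate gave 8 to 10 in the fit that pools the spread and assumes the lone sample to vary like the other groups. For SGN-like wells from E14.5 to E17.5/E18.5, 6 members were called with collagen and pathway genes among the clustering features, 3 in the SS2_20 plates, 18 with mixed wells counted as SGN-like, and 5 to 11 without 1 plate. At P3 leaving out 1 plate gave 9 to 15. For glia-like wells over stage DESeq2 called 4, the cell filter of the study's reporting form (stricter on genes and counts, looser on spike-ins) 1, leaving out wells with markers of 2 classes 7, the SS2_20 plates alone 7, and leaving out 1 plate 0 to 1; for OM-like wells these were 1 (DESeq2) and 0 to 0 (1 plate out). Among the single-gene values followed over the settings, directions turned for Col5a2 in SGN-like wells before birth (3.04 with mixed wells), for Col5a1 (0.10 with that cell filter and 2.55 with mixed wells) and for Col9a3 in HC-like wells (-0.11 with low-Otog clusters only). The cause was not tested. Of the other values followed 935 kept their side of the threshold, 56 fell below it and 13 moved. Outside these values, calls in HC-like against SGN-like wells also turned. Those of Col4a1, Col4a2, Col5a1, Col11a1 and Col16a1 turned with mixed wells, and that of Col16a1 with low-Otog clusters only. The alternatives with mixed wells, unnamed clusters, chosen HC-like clusters and the pooled spread were added after seeing the data. Sums of 5 and 10 wells and members under 1 CPM are limited most by depth. The share of all genes called moved with the setting as well. In SGN-like wells before birth it was 21.6% in the main fit and 22.3% with collagen and pathway genes among the clustering features. With mixed wells it was 19%.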

Other observations

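At E17.5 the glia-like wells held 3 clusters on 1 plate, given as CPM of summed wells with no replicate. The 36 wells led by Mal and Prx, genes of myelinating Schwann cells, had Col1a2 at 9104, Col3a1 at 7639, Col1a1 at 835 and Col4a1 at 1288 CPM. The 159 wells led by Deptor and Ahr had Col1a2 at 1023, Col3a1 at 759, Col1a1 at 3.27 and Col4a1 at 537 CPM. The order was the reverse for Col20a1, at 0.120 CPM in the former and 72.2 CPM in the latter, and for Col23a1, at 249 and 846 CPM. The 38 cycling wells, led by Aspm and Cenpf, had Col1a2 at 1620 and Col3a1 at 1154 CPM.

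The SGN/glia mixed wells of E18.5 (198 and 213 wells) and P3 (275 and 103 wells) carried neuronal markers at 11047 to 17946 CPM and glial markers at 4587 to 7567 CPM. Among glia-rich collagens Col1a2 was at 816 and 642 CPM at E18.5 and 228 and 185 CPM at P3. Col11a1 was at 330 and 328 CPM at E18.5 and 39.4 and 26.6 CPM at P3, and Col23a1 at 248 and 228 and then 22.5 and 12.9 CPM. Col14a1 ran opposite, at 22.2 and 16.6 CPM at E18.5 and 117 and 128 CPM at P3, as did Col15a1, at 2.44 and 1.55 and then 20.0 and 18.6 CPM. Glial marker levels differed between these stages too, and no test was run on these wells.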
